A study of Xenopus laevis with 9 samples.

Results

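The transcription factor genes tfap2a, tfap2b, foxd3 and alx1, and the lmo4 genes, were followed in cranial neural crest of the frog Xenopus laevis. The embryos had an antisense knockdown aimed at the metalloprotease ADAM13, or its control. Probe sets were taken where the array annotation, with the homeolog suffix .L or .S removed, read tfap2a, tfap2b, tfap2c, tfap2e, foxd3 or alx1, or began with lmo4. This gave 11 of the 15491 probe sets on the array and 8 of the 7531 gene symbols: tfap2a.L, tfap2b.L, foxd3.L, foxd3.S and alx1.L with 1 probe set each, lmo4.1.S with 3, lmo4.2.L with 2 and lmo4.2.S with 1. No probe set carried the symbol tfap2c or tfap2e, so these genes were not analysed here. Where a symbol had several probe sets they are numbered by brightness, probe set 1 being the brightest.

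The 9 arrays fall into 3 groups of 3. In the control group, CMO, embryos received a control morpholino, an antisense oligomer with no intended target. In the group MO13 they received a morpholino against ADAM13. In the group MO13_C13 they received that morpholino and mRNA encoding GFP joined to the cytoplasmic domain of ADAM13, a fragment without the protease domain. All 3 groups had 10 ng of morpholino at the one-cell stage and were kept at 15 °C, and the crest was cut out at stages 15 to 17 and extracted at once. The mRNA dose reads 300 pg on the sample labels but 0.5 ng in the description of the series, a difference that these values do not resolve. The study was done as 3 independent experiments, each with 1 array per group. The replicate number in the sample titles is used here to name the experiment. The sample descriptions number the same experiments differently. Strain and number of embryos per array were not found in the labels, and uninjected embryos were not analysed here.

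The neural crest forms at the border of the neural plate, leaves the neural tube and gives rise to facial cartilage, pigment cells and peripheral neurons. Tfap2 proteins are DNA-binding factors that act early at this border and again in the premigratory crest, where Tfap2a is needed to induce crest genes and Tfap2b is a close relative expressed in overlapping cells. Foxd3 is a forkhead repressor that keeps crest cells in a multipotent state. Alx1 is a homeodomain factor of the frontonasal crest, and Lmo4 is a LIM-only adaptor protein that binds DNA-binding factors, among them Snai2 in frog crest, rather than DNA itself.

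Values are log2 intensities, and levels of different probe sets cannot be set against each other. Array medians lay between 4.88 and 5.07. In this design a morpholino against translation need not change its own mRNA: adam33.L, the current symbol for ADAM13, read 3.07, 4.50 and 3.34 in CMO, 4.42, 3.78 and 4.81 in MO13, and 10.00, 9.98 and 10.23 in MO13_C13. It was high in the group labelled as given mRNA from this gene. Which part of the gene its probes match was not examined. The homeolog probe set adam33.S read 1.33 to 1.71 over the 9 arrays, MO13_C13 among them. Crest markers were present in all groups. The group means of snai2.L were 9.68, 9.68 and 9.55 in CMO, MO13 and MO13_C13, those of sox9.S 10.23, 10.66 and 10.34, and those of sox10.L 6.91, 6.61 and 6.70. Of the 8 crest marker genes found for 5 of 7 names in the list, 7 lay over every array median, the other being snai2.S. These include foxd3.L and foxd3.S, which are themselves among the 11 probe sets followed here. The names sox8 and twist1 found no probe set. Muscle and mesoderm markers, 8 genes found for 7 of 9 names, all had means under every array median. Neural plate markers were bright, however, with 9 of 13 genes over every array median. These include zic1.S, which is also in the crest network list used below.

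Group means were compared with limma, first with the 3 groups alone and then with the experiment as a block, which removes differences between experiments from the error. P-values were adjusted by the Benjamini-Hochberg method over all 15491 probe sets, and a value under 0.05 counted as called. Of the 11 probe sets, 0 were called in any comparison of groups by either fit. For MO13 against CMO, 0.0968% of all probe sets were called, and 1.16% with the block. For MO13_C13 against MO13 the share was 0.00646% in both fits. For MO13_C13 against CMO it was 0.142%, and 1.76% with the block. For both ADAM13 morpholino groups together against CMO it was 0.239%, and 3.21% with the block. Differences below are therefore given as values that did not pass. The 95% interval shows which sizes the 3 arrays per group could not exclude in the fit on groups alone, unless the block is named. That fit does not use the pairing by experiment. The intervals are not adjusted for the number of probe sets.

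**Figure D1:**
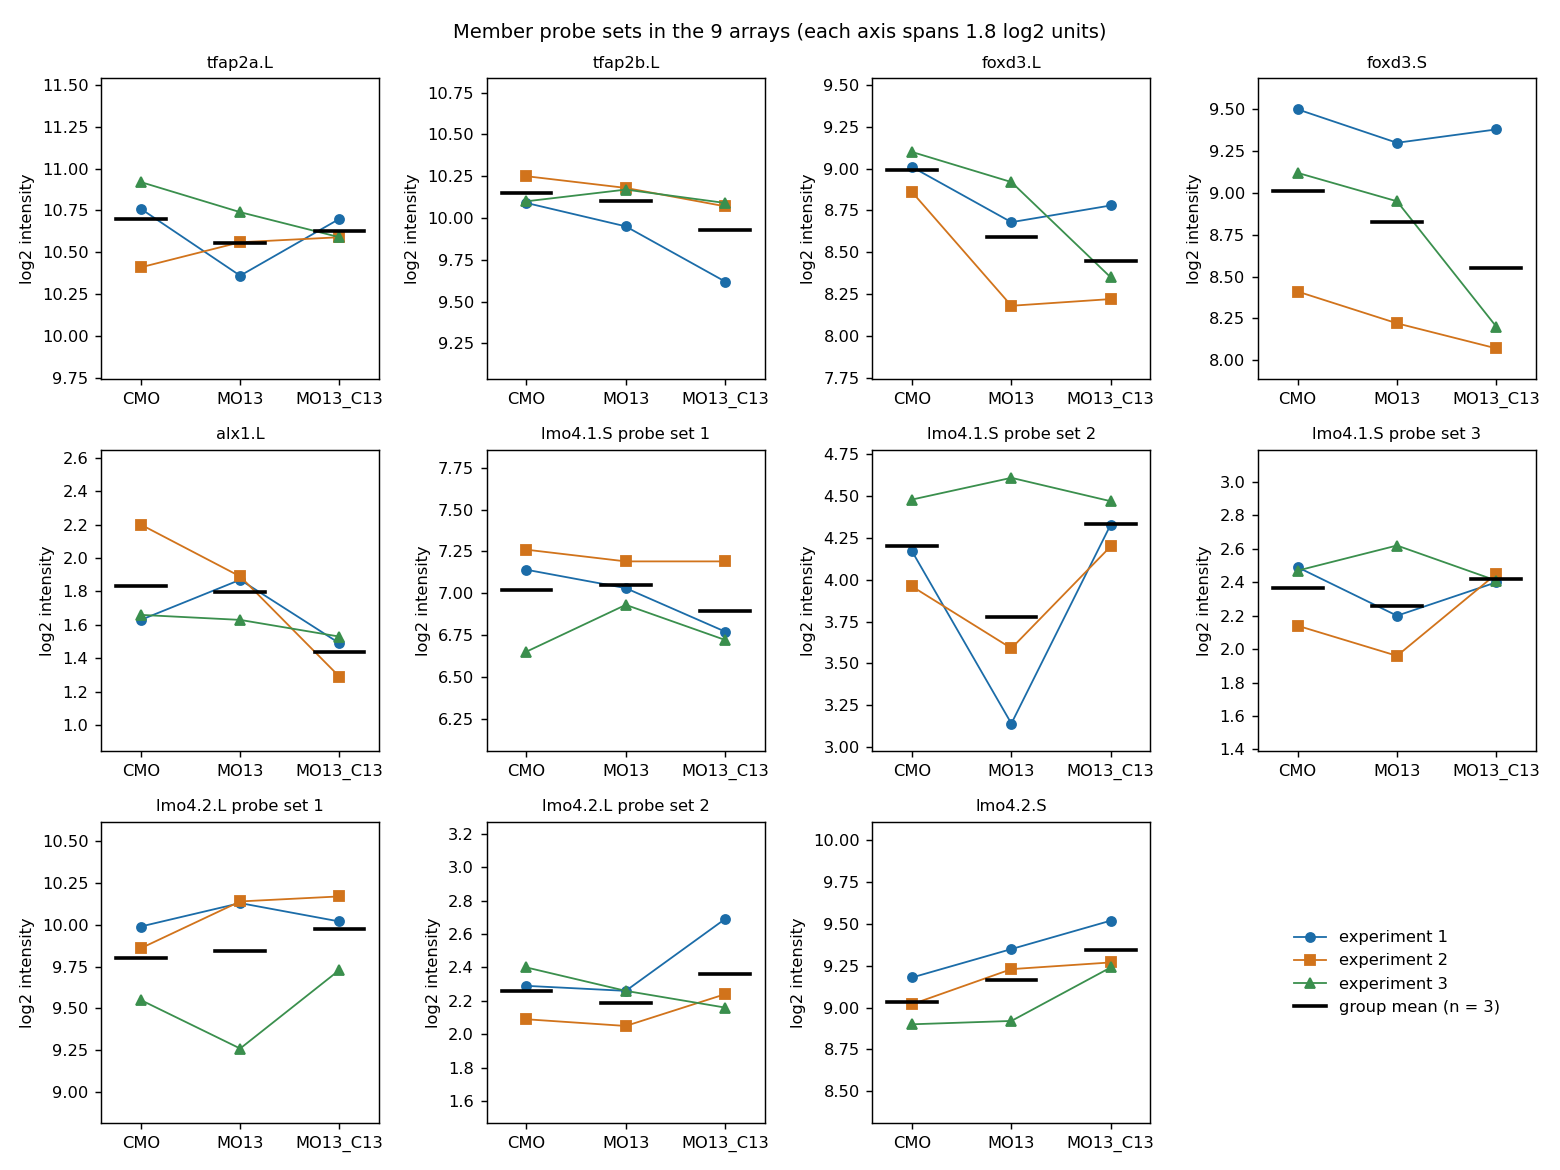
Log2 intensity (vertical axes, each spanning 1.8 log2 units) of the 11 probe sets in the 3 groups (horizontal axes), with arrays of 1 experiment joined and black bars for group means of 3 arrays. The foxd3.L panel shows the CMO arrays above all MO13_C13 arrays, the lmo4.2.S panel shows the reverse order, and the foxd3.S panel shows the experiments lying further apart than the groups.

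Tfap2a, the founding member of the family in crest induction, differed little between groups. The probe set tfap2a.L read 10.76, 10.41 and 10.92 in CMO replicates 1, 2 and 3, 10.36, 10.56 and 10.74 in MO13, and 10.70, 10.59 and 10.59 in MO13_C13. The groups overlapped fully, and the widest spread lay in the control arrays. The group means were 10.70 (SD 0.26, n = 3), 10.55 (SD 0.19) and 10.63 (SD 0.06). MO13 lay -0.14 from CMO (SE 0.16, 95% interval -0.51 to 0.22, limma adjusted p = 0.953), and the sign was not the same in all experiments (-0.40, 0.15 and -0.18). MO13_C13 lay -0.07 from CMO (95% interval -0.43 to 0.29, limma adjusted p = 0.996) and 0.07 from MO13. The intervals of tfap2a.L thus reach no further than -0.51 below CMO and 0.29 above it.

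Tfap2b was lowest in one MO13_C13 array. The probe set tfap2b.L read 10.09, 10.25 and 10.10 in CMO, 9.95, 10.18 and 10.17 in MO13, and 9.62, 10.07 and 10.09 in MO13_C13. All but the MO13_C13 array of experiment 1 lay within 9.95 to 10.25. The group means were 10.15 (SD 0.09), 10.10 (SD 0.13) and 9.93 (SD 0.27). MO13_C13 lay -0.22 from CMO (SE 0.15, 95% interval -0.57 to 0.13, limma adjusted p = 0.901), lower in 3 of 3 experiments by -0.47, -0.18 and -0.01. MO13 lay -0.05 from CMO (limma adjusted p = 0.996). The highest MO13_C13 array and the lowest CMO array both read 10.09. The levels of tfap2a.L and tfap2b.L did not move together over the 9 arrays (Pearson r = -0.10).

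Proteins that work with or against Tfap2 were measured for 4 of the 9 names in a list of cofactors and inhibitors, as 5 genes. None was called by limma in any comparison, with or without the block. Kctd15, which is known from zebrafish to bind Tfap2a and block its activation domain, had kctd15.L group means of 9.46, 9.76 and 9.36 in CMO, MO13 and MO13_C13. The coactivator gene cited4.L had 9.79, 9.66 and 9.59, and cited2.L 5.81, 5.64 and 5.87. The acetyltransferase gene crebbp.L had 7.72, 7.67 and 7.67, and the dim crebbp.S 3.55, 3.42 and 3.75.

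Protocadherin genes reported downstream of Tfap2a in frog crest had lower means in both ADAM13 morpholino groups, without passing. The probe set pcdh8.2.L, for an adhesion protein of the protocadherin 8 family, had group means of 6.50, 5.83 and 5.33. MO13_C13 lay -1.17 from CMO (SE 0.33, limma adjusted p = 0.348, and 0.115 with the block), with experiments at -1.04, -1.93 and -0.55. MO13 lay -0.68 from CMO (limma adjusted p = 0.774), but in experiment 3 it was not lower than CMO. Both morpholino groups together lay -0.79, -1.79 and -0.195 from CMO by experiment, so the size of the pcdh8.2.L difference varied widely. Its relative pcdh8l.S had group means of 9.45, 8.94 and 8.82, and MO13_C13 lay -0.64 from CMO (limma adjusted p = 0.799). Of the 4 names in that list 2 were found, as 2 genes, and 0 were called.

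Among the 7 probe sets over the array medians, foxd3.L had the largest distance from the control in both morpholino groups, though it was not called. The probe set foxd3.L read 9.01, 8.86 and 9.10 in CMO, 8.68, 8.18 and 8.92 in MO13, and 8.78, 8.22 and 8.35 in MO13_C13. Every MO13_C13 array lay under every CMO array, while 1 MO13 array, that of experiment 3, reached above the lowest CMO array. The group means were 8.99 (SD 0.12), 8.59 (SD 0.38) and 8.45 (SD 0.29), so the order was CMO, MO13, MO13_C13, and the last 2 did not differ beyond their spread. RNA came from whole explants, so fewer foxd3 cells and less foxd3 RNA per cell cannot be told apart, here or in any result that follows.

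MO13 lay -0.40 from CMO for foxd3.L (SE 0.22, 95% interval -0.89 to 0.10, limma adjusted p = 0.829, and 0.273 with the block). It was lower in 3 of 3 experiments, by -0.33, -0.68 and -0.18. With the block the 95% interval was -0.77 to -0.03. MO13_C13 lay -0.54 from CMO (SE 0.22, 95% interval -1.04 to -0.04, limma adjusted p = 0.648, and 0.153 with the block), a ratio of 0.688, again lower in 3 of 3 experiments (-0.23, -0.64 and -0.75). Both morpholino groups together lay -0.47 from CMO (SE 0.19, limma adjusted p = 0.512, and 0.125 with the block). MO13_C13 against MO13 gave -0.14 (limma adjusted p = 1), with 0.10, 0.04 and -0.57 by experiment, and the mean of foxd3.L lay no nearer to CMO with the added cytoplasmic domain than without it. These comparisons share arrays and are not independent of each other.

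The second homeolog, foxd3.S, varied mainly with the experiment. It read 9.50, 8.41 and 9.12 in CMO, 9.30, 8.22 and 8.95 in MO13, and 9.38, 8.07 and 8.2 in MO13_C13. Within each group the array of experiment 1 was the highest and that of experiment 2 the lowest, and the groups overlapped. The group means were 9.01 (SD 0.55), 8.82 (SD 0.55) and 8.55 (SD 0.72). MO13 lay -0.19 from CMO (SE 0.44, limma adjusted p = 0.988, and SE 0.17, limma adjusted p = 0.661 with the block), with -0.20, -0.19 and -0.17 within the 3 experiments. Leaving out single arrays broke this pairing and moved the difference to 0.06 (without CMO replicate 1), 0.12 (without MO13 replicate 2), -0.49 (without CMO replicate 2) or -0.42 (without MO13 replicate 1). MO13_C13 lay -0.46 from CMO (SE 0.44, limma adjusted p = 0.961, and 0.251 with the block), with -0.12, -0.34 and -0.92 by experiment. That difference ran from -0.88 without MO13_C13 replicate 1 to -0.21 without CMO replicate 1. The foxd3.L and foxd3.S values had a Pearson r of 0.77 over the 9 arrays. Whether the probes of each set tell the homeologs apart was not tested.

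The crest marker list without foxd3, 6 genes, had a summed level of 11.32 to 11.51 (log2) in CMO, 11.45 to 11.67 in MO13 and 11.24 to 11.47 in MO13_C13. The sum is carried by its brightest gene, sox9.S, whose mean lay 0.43 above CMO in MO13. Of the other 5 genes, ets1.S, ets1.L, sox10.L and snai2.S had lower means in MO13 than in CMO (7.95 against 8.05, 7.75 against 8.02, 6.61 against 6.91 and 1.81 against 2.02), and snai2.L had 9.68 in both. Genes of the Tle family, which includes corepressors that Foxd3 binds to silence its targets, were found for 3 of 4 names as 4 genes. Of these, 0 were called in any comparison. Their group means in CMO, MO13 and MO13_C13 were 10.30, 10.19 and 10.16 for tle5.L, which encodes a short member of the family, 9.50, 9.80 and 9.60 for tle5.S, and 9.0, 8.98 and 8.79 for tle2.L. The dim tle4.S had 2.07, 1.96 and 1.98, under every array median.

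The alx1.L probe set lay under every array median, near the lower quartiles of the arrays, which ran from 1.78 to 1.89. It read 1.63, 2.2 and 1.66 in CMO, 1.87, 1.89 and 1.63 in MO13, and 1.49, 1.29 and 1.53 in MO13_C13. The MO13_C13 arrays lay below all arrays of both other groups. The group means were 1.83 (SD 0.32), 1.80 (SD 0.14) and 1.44 (SD 0.13). MO13_C13 lay -0.39 from CMO (SE 0.17, limma adjusted p = 0.712) and -0.36 from MO13 (limma adjusted p = 1). At this brightness a low level cannot be told from background, since detection calls were not used here.

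The lmo4 genes had bright and dim probe sets. Of the 6, lmo4.1.S probe set 1, lmo4.2.L probe set 1 and lmo4.2.S lay over the median of all 9 arrays, and the other 3 under every array median. The lmo4.2.S probe set read 9.18, 9.02 and 8.90 in CMO, 9.35, 9.23 and 8.92 in MO13, and 9.52, 9.27 and 9.24 in MO13_C13. Every MO13_C13 array lay above every CMO array, and the MO13 arrays lay between, overlapping both. In all 3 experiments the order was CMO, MO13, MO13_C13. The group means were 9.03 (SD 0.14), 9.17 (SD 0.22) and 9.34 (SD 0.15).

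For lmo4.2.S, MO13_C13 lay 0.31 above CMO (SE 0.15, 95% interval -0.03 to 0.65, limma adjusted p = 0.758, and 0.191 with the block), a ratio of 1.24. The distances by experiment were 0.34, 0.25 and 0.34, the most even of the 3 that did not overlap. With the block the 95% interval of MO13_C13 against CMO was 0.08 to 0.54. MO13 lay 0.13 above CMO (SE 0.15, limma adjusted p = 0.956), with 0.17, 0.21 and 0.02 by experiment. MO13_C13 lay 0.18 above MO13 (limma adjusted p = 1), with 0.17, 0.04 and 0.32. Both morpholino groups thus had means above CMO, MO13_C13 further than MO13.

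The homeolog probe set lmo4.2.L probe set 1 read 9.99, 9.86 and 9.55 in CMO, 10.13, 10.14 and 9.26 in MO13, and 10.02, 10.17 and 9.73 in MO13_C13. The array of experiment 3 was the lowest in each group, and the groups overlapped. MO13_C13 lay 0.17 from CMO (SE 0.26, limma adjusted p = 0.993), higher in 3 of 3 experiments by 0.03, 0.31 and 0.18. Its values had a Pearson r of 0.75 with lmo4.2.S. The lmo4.1.S probe set 1, from the other lmo4 gene, read 7.14, 7.26 and 6.65 in CMO, 7.03, 7.19 and 6.93 in MO13, and 6.77, 7.19 and 6.72 in MO13_C13. It lay 0.03 and -0.12 from CMO in the 2 morpholino groups, inside its own spread.

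The dim lmo4.1.S probe set 2 had the widest range of the 11 over the arrays, 1.47. It read 4.17, 3.96 and 4.48 in CMO, 3.14, 3.59 and 4.61 in MO13, and 4.33, 4.2 and 4.47 in MO13_C13. In experiments 1 and 2 MO13 was the lowest, and in experiment 3 it was the highest. MO13 lay -0.42 from CMO (SE 0.34, limma adjusted p = 0.921) and MO13_C13 0.55 above MO13 (limma adjusted p = 1, and 0.721 with the block). In the bright probe set of the same gene these distances were 0.03 and -0.16. The remaining dim probe sets, lmo4.1.S probe set 3 and lmo4.2.L probe set 2, ranged from 1.96 to 2.62 and from 2.05 to 2.69, with differences between group means of at most 0.17 in size.

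Partners of Lmo4 were found for 3 of 5 names as 4 genes, and 0 were called in any comparison. Ldb1, the LIM-binding scaffold that Lmo4 needs to join complexes, had ldb1.L group means of 11.99, 12.01 and 11.90 and ldb1.S means of 7.36, 7.45 and 7.48 in CMO, MO13 and MO13_C13. The GATA factor genes gata2.L and gata3.S had means under every array median.

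**Figure D2:**
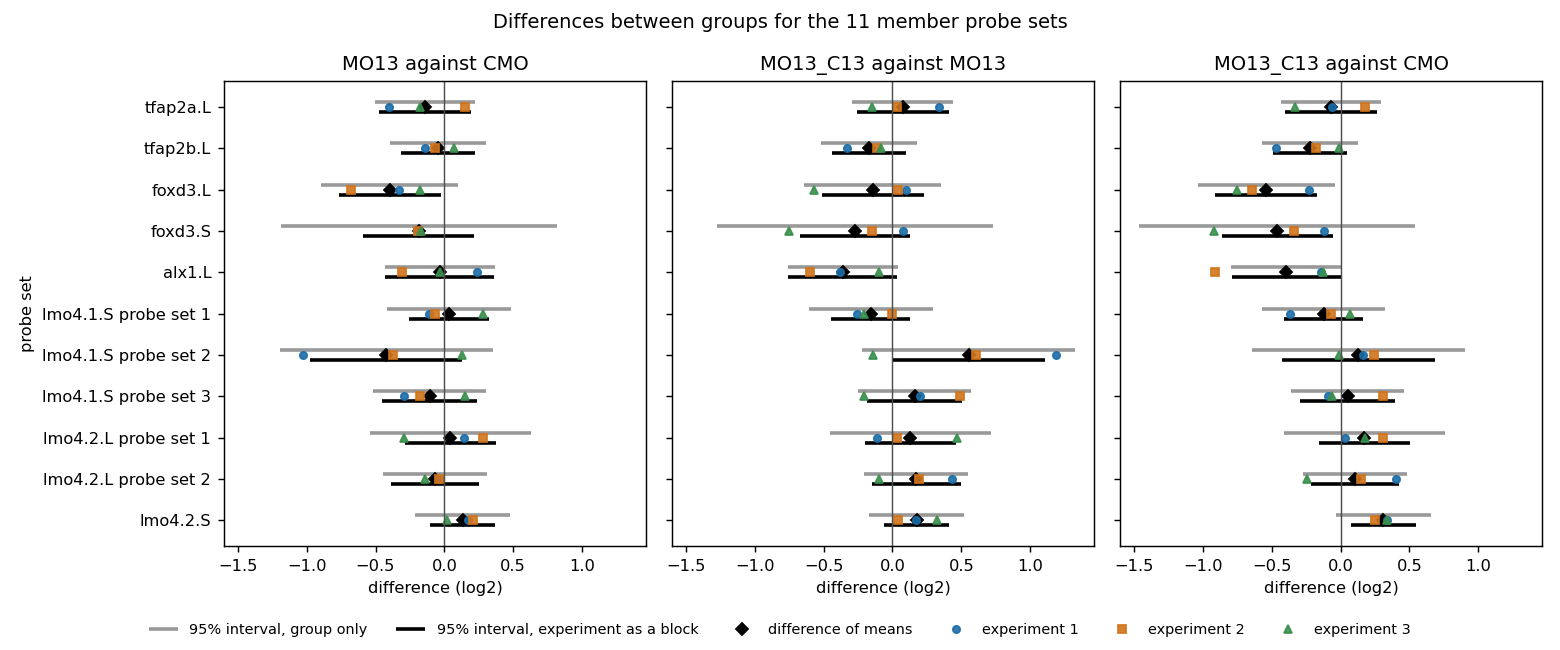
Log2 differences between group means (diamonds) for the 11 probe sets in 3 comparisons, with 95% intervals from the fit on groups alone (grey) and with the experiment as a block (black), and the difference in each experiment as a coloured symbol. In MO13_C13 against CMO the grey interval of foxd3.L ends at -0.04 and that of lmo4.2.S starts at -0.03, the black intervals of foxd3.L, foxd3.S and lmo4.2.S end at -0.17, end at -0.06 and start at 0.08, while 0 of the 11 probe sets were called after adjustment.

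Counts without adjustment have to be read against all probe sets. Between MO13 and CMO, 0 of the 11 had an unadjusted p under 0.05 in limma against 6.87% of all probe sets, and 1, foxd3.L (lower), with the block against 16.4%. Between MO13_C13 and MO13 there were 0 in either fit, where 1.36% and 6.71% of all probe sets were under it. Between MO13_C13 and CMO there was 1, foxd3.L, against 7.15%, and with the block 3, foxd3.L and foxd3.S (lower) and lmo4.2.S (higher), against 16.1%. For both morpholino groups against CMO there was 1, foxd3.L, against 8.52%, and with the block 2, foxd3.L and lmo4.2.S, against 18.1%. Groups did not overlap for 0 of the 11 between MO13 and CMO, where 9.92% of all probe sets did not, and for 1, alx1.L, between MO13_C13 and MO13, against 4.51%. They did not overlap for 3 between MO13_C13 and CMO (foxd3.L, alx1.L and lmo4.2.S) against 12.6%, and for 0 with both groups together against 5.18%.

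Over the 11 probe sets the median difference was -0.07 between MO13 and CMO, with 3 higher and 8 lower. Over all probe sets the median was -0.01, with 48.3% higher. Among the 8 lower were the dim alx1.L and the 3 dim lmo4 probe sets. The median size of the difference, without sign, was 0.107 for the 11 and 0.143 for all probe sets. Between MO13_C13 and CMO the median was -0.07, with 5 higher and 6 lower, beside 49.2% of all probe sets higher, and the median size 0.173 against 0.140. Between MO13_C13 and MO13 the median was 0.07 with 6 higher and 5 lower, beside 49.0% of all probe sets higher, and the median size 0.173 against 0.117. The probe sets of 1 gene share a transcript, so these 11 are not 11 separate genes.

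Differences between the 3 experiments passed the test for 2 of these probe sets. A limma F test between experiments, with group in the model, called 2 of the 11 probe sets, foxd3.S (adjusted p = 0.0109) and lmo4.2.L probe set 1 (adjusted p = 0.0453), while it called 21.1% of all probe sets, so the count is near the background. For foxd3.S the means of experiments 1, 2 and 3 were 9.39, 8.23 and 8.76. The call was lost without experiment 1 (limma adjusted p = 0.0817) and without experiment 2 (limma adjusted p = 0.128), and held in the other 14 of 16 alternatives. For lmo4.2.L probe set 1 the means were 10.05, 10.06 and 9.51, and without experiment 3 the limma adjusted p was 0.970. That call was also lost on leaving out any single array other than MO13_C13 replicate 1 (limma adjusted p from 0.0628 to 0.150 over those 8), and without experiment 1 (0.0625) or 2 (0.108). The labels do not say what differed between the experiments, such as the clutch or the exact stage.

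The share of the sum of squares lying between experiments was 78.4% for foxd3.S, 76.1% for lmo4.2.L probe set 1 and 71.7% for lmo4.1.S probe set 1. The group accounted for 49.1% in foxd3.L, 50.4% in alx1.L and 43.9% in lmo4.2.S, and for between 6.41% and 29.7% in the other 8. The median over the 11 was 44.3% for experiment and 15.9% for group, beside 45.0% and 19.6% over all probe sets. In tfap2a.L most of the variation, 54.8%, followed neither.

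**Figure D3:**
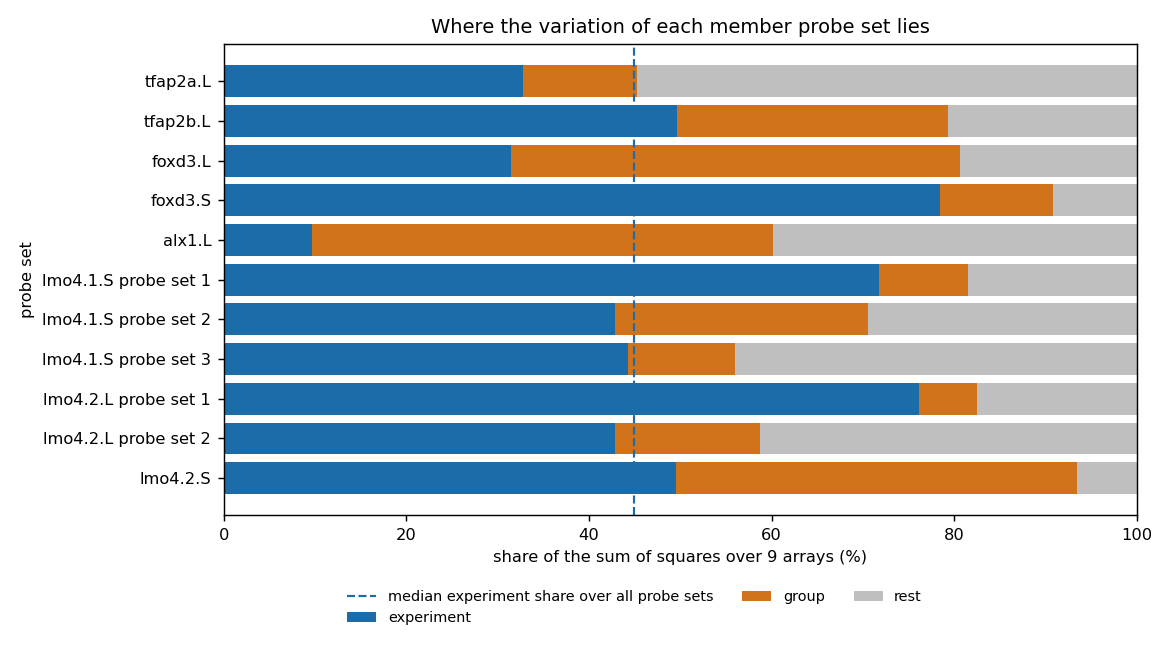
Share of the sum of squares over the 9 arrays (horizontal axis, percent) that lay between experiments (blue), between groups (orange) and in the rest (grey) for each of the 11 probe sets. The dashed line marks the median experiment share over all 15491 probe sets, 45.0%, and the longest blue bar is that of foxd3.S at 78.4%.

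For each gene, its brightest probe set was set against 5129 other bright, named probe sets, and the closest by Pearson r over the 9 arrays were noted. With 9 arrays and so many candidates high values arise readily, and arrays of 1 experiment share their deviations, so these are descriptions. The closest to foxd3.L was hoxa2.S, a Hox gene of the hindbrain and second-arch crest (r = 0.97), which read 7.77, 7.44 and 7.96 in CMO, 7.09, 6.2 and 7.53 in MO13, and 7.31, 6.57 and 6.92 in MO13_C13. Like foxd3.L it was lowest in the arrays of experiment 2 and lower in both morpholino groups in each experiment. The next was ca4.1.S, a carbonic anhydrase gene (r = 0.92). For foxd3.S they were h2ax.lS (r = 0.94) and ptbp1.L, a splicing regulator (r = 0.91).

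For tfap2a.L the closest were prrc2c.S (r = 0.91) and the mRNA export factor alyref.S (r = 0.90), and for tfap2b.L tmem192.L (r = 0.95) and the CTP synthase gene ctps2.L (r = 0.92). For lmo4.2.S they were the mitochondrial carrier gene slc25a44.S (r = 0.94) and gkap1.S (r = 0.92), and for lmo4.2.L sass6.L, of the centriole (r = 0.95), and ranbp2.L, of the nuclear pore (r = 0.95). For lmo4.1.S they were gpr137c.S (r = 0.97) and the cyclin gene ccnb1.2.L (r = 0.94). For the dim alx1.L they were wars1.S (r = 0.83) and kif5b.S (r = 0.81). Between the genes themselves the most negative value was that of tfap2b.L with lmo4.2.S (r = -0.77).

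The wider crest network was taken as a list of 56 names, of which 35 were found as 48 genes other than those above. None was called by limma without the block in any comparison. With the block 1 was, nr2f1.L, a nuclear receptor gene expressed in crest, in MO13 against CMO and in both morpholino groups against CMO. It had group means of 7.84, 6.85 and 7.12, and MO13 lay -0.99 from CMO (SE 0.21, limma adjusted p = 0.210, and 0.0257 with the block), and each experiment showed it, at -0.83, -0.95 and -1.19. With the block, 1.16% of all probe sets were called in MO13 against CMO and 3.21% in both morpholino groups against CMO. The 1 of 48 is near these shares. Without experiment 1 or 2 the block fit called 0 probe sets in MO13 against CMO, so the nr2f1.L call was lost there. Between MO13 and CMO 20 of the 48 had higher and 28 lower values, with a median of -0.04, beside 48.3% of all probe sets higher. The border gene dlx5.L lay at -0.58 (limma adjusted p = 0.642), the cartilage regulator sox9.S at 0.43 (0.704) and the retinoid receptor gene rxrg.L at -0.30 (0.735). With the block these limma adjusted p-values were 0.151, 0.131 and 0.312.

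Between MO13_C13 and CMO 18 network genes had higher and 30 lower values, with a median of -0.10, beside 49.2% of all probe sets higher. There nr2f1.L lay at -0.72 and was not called (limma adjusted p = 0.391, and 0.0552 with the block). The border factor pax3.L lay at 0.40 (limma adjusted p = 0.674, and 0.184 with the block). Between MO13_C13 and MO13 23 had higher and 24 lower values, with a median of -0.01. The 4 with the smallest unadjusted p there were dlx5.L at 0.41, myc.L at -0.26, sox9.S at -0.32 and myc.S at -0.37, each with a limma adjusted p of 1. With the block it was 0.721 to 0.745. For both morpholino groups against CMO 17 had higher and 31 lower values, with a median of -0.06, beside 48.9% of all probe sets higher. There nr2f1.L lay at -0.85 (limma adjusted p = 0.144, and 0.0184 with the block). Also, pcdh8.2.L lay at -0.93 (limma adjusted p = 0.344, and 0.114 with the block), pax3.L at 0.32 (0.598 and 0.174) and rxrg.L at -0.26 (0.599 and 0.289).

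Markers of neighbouring tissue were set beside these values. The summed level of 14 epidermal genes (10 of 14 names found) ran from 12.35 to 12.84 in CMO, 12.26 to 12.63 in MO13 and 12.63 to 12.91 in MO13_C13. The brightest gene in this sum was krt70.S, with a mean of 11.73 over the 9 arrays, and the next was cldn4.L with 9.48. Between MO13_C13 and CMO 12 of the 14 had higher values, beside 49.2% of all probe sets, with a median of 0.39. By limma 0 were called without the block and 2 with it, beside 0.142% and 1.76% of all probe sets. Between MO13 and CMO 6 had higher and 8 lower values, with a median of -0.19. Among the lower was krt70.S (11.57 in MO13 against 11.75 in CMO). Among the higher were krt12.4.L (7.45 against 6.64) and krt12.4.S (6.98 against 6.03). The sum weighs krt70.S most, so it does not give the direction of the other genes. Within each experiment the epidermal sum was highest in MO13_C13, the group with the lowest mean of foxd3.L and the highest of lmo4.2.S. The sum was lowest in MO13 in each experiment (12.26 against 12.35 in CMO, 12.29 against 12.53 and 12.63 against 12.84). In MO13 foxd3.L was also lower than in CMO, and lmo4.2.S higher. Of the 14, 4 had means under every array median, among them the defining genes tp63.L and grhl3.L. The part of admixed epidermis in those values was not tested.

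The summed neural plate markers ran from 13.11 to 13.17 in CMO, 13.08 to 13.23 in MO13 and 13.08 to 13.14 in MO13_C13. The brightest gene in this sum was sox11.S. Between MO13 and CMO 8 of the 13 genes had higher and 5 lower values. Of these, 3 higher and 1 lower had an unadjusted p under 0.05 in limma, beside 6.87% of all probe sets. None was called without the block. With it 1 was, for both morpholino groups against CMO, beside 3.21% of all probe sets. The summed markers of muscle and mesoderm ran from 4.81 to 5.08, 4.67 to 4.95 and 4.64 to 4.93. By limma 0 of these 8 genes were called without the block. With it 1 was in MO13, in MO13_C13 and in both morpholino groups against CMO, beside 1.16%, 1.76% and 3.21% of all probe sets. Between MO13 and CMO 2 of the 8 had higher and 6 lower values. Group means fell in tnnt3.S (3.54, 2.53 and 2.42) and were above CMO in mylpf.L (1.35, 2.29 and 2.1), so the sum hides opposite moves. Placode markers, 5 genes of which 3 had means under every array median, ran from 7.24 to 7.76, 7.15 to 7.45 and 7.21 to 7.68. Endoderm markers ran from 5.6 to 7.04 in CMO, 6.08 to 6.89 in MO13 and 6.04 to 6.92 in MO13_C13, and were lowest in experiment 3 in each group. Of the 5 endoderm genes 4, all but gata6.L, had means under every array median. Notochord markers, 4 genes, ran from 4.63 to 6.52, 5.33 to 7.10 and 4.98 to 7.27, and were lowest in experiment 2 in each group. Of these 4 genes 3, all but not.L, had means under every array median. Cement gland markers ran from 3.34 to 4.49, 3.59 to 4.47 and 3.93 to 5.19, and those of multiciliated cells and ionocytes from 3.93 to 4.33, 3.77 to 4.68 and 4.36 to 4.8, all 6 genes of both lists having means under every array median.

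**Figure D4:**
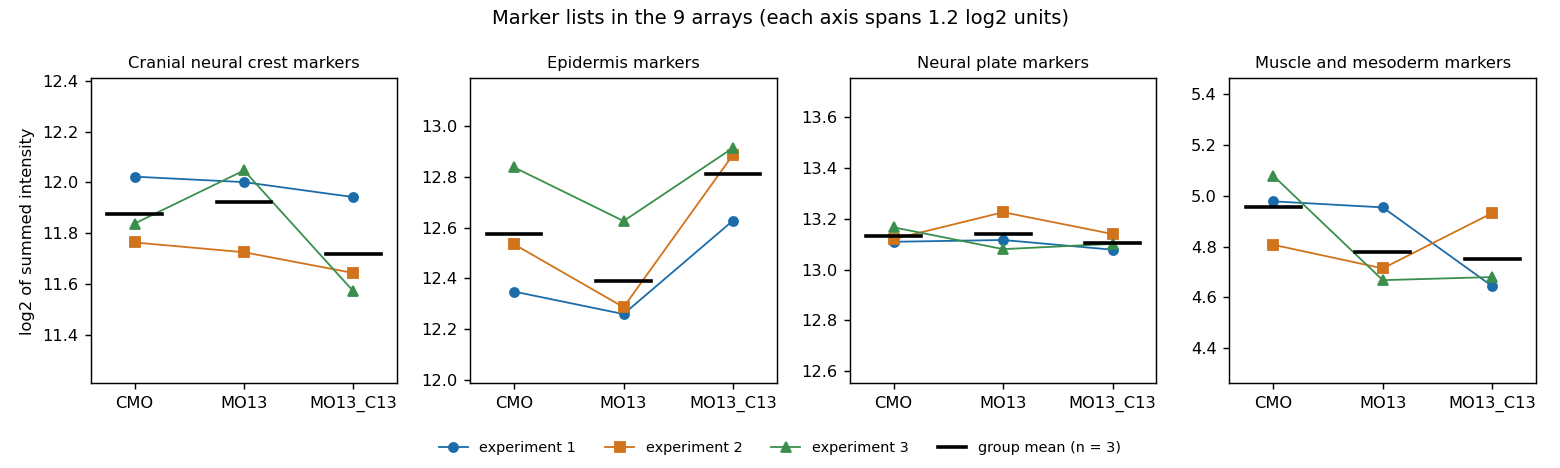
Log2 of the summed intensity (vertical axes, each spanning 1.2 log2 units) of 4 marker lists in the 3 groups, with arrays of 1 experiment joined and black bars for group means of 3 arrays. The epidermal sum is highest in MO13_C13 and lowest in MO13 in each experiment. The crest list, which holds foxd3, has its lowest array, 11.57, in MO13_C13.

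The authors' deposited table of probe sets affected by the loss of ADAM13 holds 6121 probe sets, 39.5% of the array, at a p of 0.01 by a test that is not stated. It includes 4 of the 11, with log2 changes from CMO to MO13 of -0.40 for foxd3.L, -0.19 for foxd3.S, -0.07 for lmo4.2.L probe set 2 and 0.13 for lmo4.2.S. The authors' deposited table of probe sets affected by both the loss and the added domain holds 2097, 13.5% of the array, and includes 1 of the 11, lmo4.2.S. The limma fit called none of these 4 in a comparison of groups.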

How the data were processed

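Biotin-labelled cDNA, amplified from total RNA of the explants, was hybridised to 9 Affymetrix Xenopus laevis arrays. Per the submitters' processing notes the authors made the deposited log2 values with GC-RMA in Affymetrix Expression Console, one per probe set. Tool versions were not given there. Quantile normalization in that method sets the arrays to a common distribution, so a shift of all genes could not be seen. The authors' lists hold the same log2 values, with a largest difference of 0. Detection calls were not used here.

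Of the 15491 probe sets, 9304 carried 1 symbol, 195 several and 5992 none, and 9227 matched a RefSeq gene. The genes, lists and tests were chosen with earlier results of these data known. All 11 probe sets of the rule are named, with the 2 nearest patterns per gene and the 4 network genes of smallest unadjusted p per comparison. Lists used the brightest probe set of each symbol, and summed levels were added on the linear scale.

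limma 3.58.1 (lmFit and eBayes) in R 4.3.3 was fitted to all 15491 probe sets and 9 arrays, two-sided, threshold 0.05. In simulated data the fit was checked for the right sign of large changes and for its share of false calls. Whether differences as small as those seen here would be called is not reported. The labels tie replicate numbers to experiments, and the deviations of same-numbered arrays from their group means correlated at 0.51 to 0.73 over 9 pairs, against -0.46 to -0.06 over 18 other pairs. Deviations within a group cancel, so the negative values of the other pairs follow from the positive ones and add no separate evidence. Alternatives were the block, only the compared arrays, dim probe sets left out, probe sets averaged per gene, arrays centred, trend with robust moderation, and arrays or experiments left out. The precision is limited by 3 arrays per group.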

Additional observations from a re-analysis of the deposited data

How the results depend on the processing

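No difference between groups of the 11 probe sets was called under any alternative. Of their 44 uncalled differences 19 took both signs, such as alx1.L in MO13 against CMO (-0.17 to 0.15) and foxd3.S there (-0.49 to 0.12). For foxd3.S the sign changed only on leaving out a single array, which breaks the pairing by experiment. Without a whole experiment its difference stayed between -0.195 and -0.18. The replicate block, which pairs arrays of an experiment, left 0 of 11 called in each of the 4 comparisons, while over all probe sets the calls went from 15 to 179 for MO13 against CMO, from 22 to 272 for MO13_C13 against CMO, from 37 to 498 for both morpholino groups and stayed at 1 for MO13_C13 against MO13. With only the compared arrays the first 2 counts were 0 and 9, with trend and robust moderation 8 and 16, and with dim probe sets left out 9 and 16. Leaving out 1 array or experiment gave 0 to 14, 0 to 23 and 0 to 39 calls for MO13, MO13_C13 and both groups against CMO, with 0 for the first without MO13 replicate 2. With the block and without experiment 1, 2 or 3 the calls were 0, 0 and 7, then 34, 1 and 28, then 99, 1 and 68. The cause was not tested. The distance of foxd3.L from CMO stayed between -0.56 and -0.19 for MO13 over 22 alternatives and between -0.70 and -0.42 for MO13_C13, with a lowest limma adjusted p of 0.222 and 0.125, and that of lmo4.2.S for MO13_C13 between 0.22 and 0.38 (lowest 0.183). For both morpholino groups the lowest for foxd3.L was 0.0965, with the block and dim probe sets left out, an alternative that was chosen after seeing the data, as was the block with an experiment left out. Between experiments 2 of the 11 were called in the main setting, 1 with probe sets averaged per gene, where the bright and dim sets of lmo4.2.L are merged, and 4 with arrays centred on their medians, which added lmo4.1.S probe set 1 (limma adjusted p = 0.0436) and lmo4.2.S (0.0488). Leaving out single arrays or experiments gave 0 to 2. The dim probe sets, alx1.L and 3 of lmo4, lie under every array median, which limits what their values can show.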
